A study of Mus musculus with 64 samples.

Results

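Epididymal white adipose tissue (eWAT), a visceral fat depot beside the epididymis, was compared between a high-fat diet (HFD) and a low-fat diet (LFD) in C57BL/6J (B6) mice. The libraries were those whose labels name B6, eWAT, HFD or LFD, and the agent "control", with 4 HFD and 4 LFD libraries, or 8 of the 64 in the series. The labels name no drug for either diet group and do not say what "control" was. No genotype other than the strain is named. The labels give neither the age of the mice nor the weeks on diet, and they do not say whether each library came from a separate mouse, so p-values measure the spread between libraries, which may be technical in part. The series holds another set of B6 eWAT with no agent named (5 HFD and 5 LFD libraries, the first set below) and eWAT of 129S1/SvlmJ (129) mice (4 HFD control and 4 LFD control libraries). These were set beside the second set. All eWAT libraries entered the scaling of the CPM and an alternative fit, among them B6 HFD libraries whose agent is labelled "rosi". The "rosi" libraries are in no group compared here.

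White adipocytes store triglyceride, take up glucose through the insulin-regulated transporter Slc2a4, and release fatty acids when noradrenaline acts on beta-adrenergic receptors. In obese mice the epididymal depot is known for adipocyte death and for macrophages that surround dying adipocytes, take up their lipid and break it down in lysosomes. B6 mice are commonly used in such studies because they gain weight readily on a high-fat diet.

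Total RNA was sequenced after removal of ribosomal RNA, and the deposited files held read counts per gene. The HFD libraries had 7009292 to 8512112 counts in genes and the LFD libraries 3129871 to 4190798, so the LFD values of low genes rest on fewer reads. Diet went with the sequencing run: all HFD libraries were in 1 lane of 1 run and all LFD libraries in 1 lane of another, and the effects of diet and of run cannot be told apart within this set. Reads that fell in no annotated gene were 33.9 to 36.4% of the reads tallied in HFD libraries and 39.3 to 49.1% in LFD libraries. LFD replicate 3 held liver transcripts, described below, and several results are given with and without it. Levels are CPM, a gene's count relative to its library's total after TMM scaling, effects are log2 fold changes of HFD over LFD ± SE, and a gene is said to rise or fall where its adjusted p in edgeR was under 0.05. The filter keeps a gene with enough counts in as many libraries as the smaller group holds. A gene near 0 on 1 diet can thus be tested through the other diet, and the direction of its change is then partly set by the filter.

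Of 13106 genes tested, 3371 rose (25.7%) and 3182 fell (24.3%) on HFD. With a change of at least 2-fold required as well, 1583 genes rose (12.1%) and 1589 fell (12.1%). The 4 HFD libraries lay above the 4 LFD libraries without overlap for 3457 genes (26.4%) and below them for 2597 (19.8%). The median gene was at -0.02 on the log2 scale. These shares are the background against which each list below is read, since 50% of the genes tested changed. Without LFD replicate 3, 3344 genes rose and 2778 fell of 13737 tested, and 5715 of the 6553 calls (87.2%) were made the same way.

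Macrophage genes rose together. Adgre1, which encodes the macrophage surface protein F4/80, was at 455, 978, 1077 and 773 CPM in HFD replicates 1 to 4, against 83.8, 50, 122 and 48.7 CPM in LFD replicates 1 to 4. Every HFD library lay above every LFD library, with HFD replicate 1 the lowest on HFD and LFD replicate 3 the highest on LFD. Adgre1 rose by 3.38 ± 0.38 (adjusted p = 0.000292). Cd68, a lysosomal membrane protein of macrophages, rose by 4.24 ± 0.51 (adjusted p = 0.000351), and Ms4a7 by 3.94 ± 0.35 (adjusted p = 0.000164). C1qa, a subunit of complement C1q made by tissue macrophages, was at 297, 466, 447 and 421 CPM on HFD, against 87.0, 70.3, 105 and 92.2 CPM on LFD, and rose by 2.14 ± 0.19. In the list of macrophage genes in general, 25 of 25 tested rose and 0 fell, with a median of 2.87 (3.10 without LFD replicate 3), where 25.7% of all genes rose. In bulk tissue, more cells of a type and more RNA per cell cannot be told apart.

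The genes of lipid-associated macrophages, the cells that surround dying adipocytes, had the highest median of the 3 macrophage lists. Trem2, a lipid-sensing receptor, was at 153, 421, 505 and 366 CPM on HFD, against 17.3, 6.76, 25.0 and 3.31 CPM on LFD. Itgax, the integrin CD11c, was at 274, 715, 957 and 592 CPM on HFD, against 40.0, 15.6, 55.2 and 6.91 CPM on LFD. The diets did not overlap for either gene, and HFD replicate 1 was again the lowest on HFD. Trem2 rose by 4.73 ± 0.60 (adjusted p = 0.000419) and Itgax by 4.38 ± 0.64 (adjusted p = 0.00072). Gpnmb, a glycoprotein of lipid-laden macrophages, was at 1384, 5363, 7261 and 4116 CPM on HFD, against 88.9, 27.3, 220 and 9.91 CPM on LFD, and rose by 5.68 ± 0.99. The LFD values of Gpnmb spread over a wider range than those of Adgre1, with the higher ones in LFD replicates 1 and 3. Ctsk, a cysteine protease, rose by 4.42 ± 0.42, Cd9, a tetraspanin, by 3.23 ± 0.32, and Plin2, a lipid droplet coat protein, by 2.28 ± 0.21. Of 25 list members tested, 22 rose and 1 fell, with a median of 3.54. The member that fell was Acp5 (-1.10, adjusted p = 0.0106), a tartrate-resistant phosphatase, and the members that passed in neither direction were Lpl and Apoe, which adipocytes express too.

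Genes used as markers of resident-type macrophages did not move as a block. Cd163, a haemoglobin scavenger receptor, fell by 0.78 ± 0.22 (adjusted p = 0.0148), with 61.4, 96.5, 54.0 and 97.6 CPM on HFD, against 119, 108, 145 and 138 CPM on LFD. Ccl8, a chemokine, rose by 3.47 ± 0.24 (adjusted p = 0.000127). Folr2, a folate receptor, rose by 2.70 ± 0.33, and Pf4, a chemokine of platelets and macrophages, by 1.51 ± 0.18. Lyve1 and Timd4, used with Cd163 to mark resident cells, were at 0.25 (adjusted p = 0.571) and -0.52 (adjusted p = 0.602). In all, 8 of 15 tested members rose and 1 fell, with a median of 0.85.

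**Figure D1:**
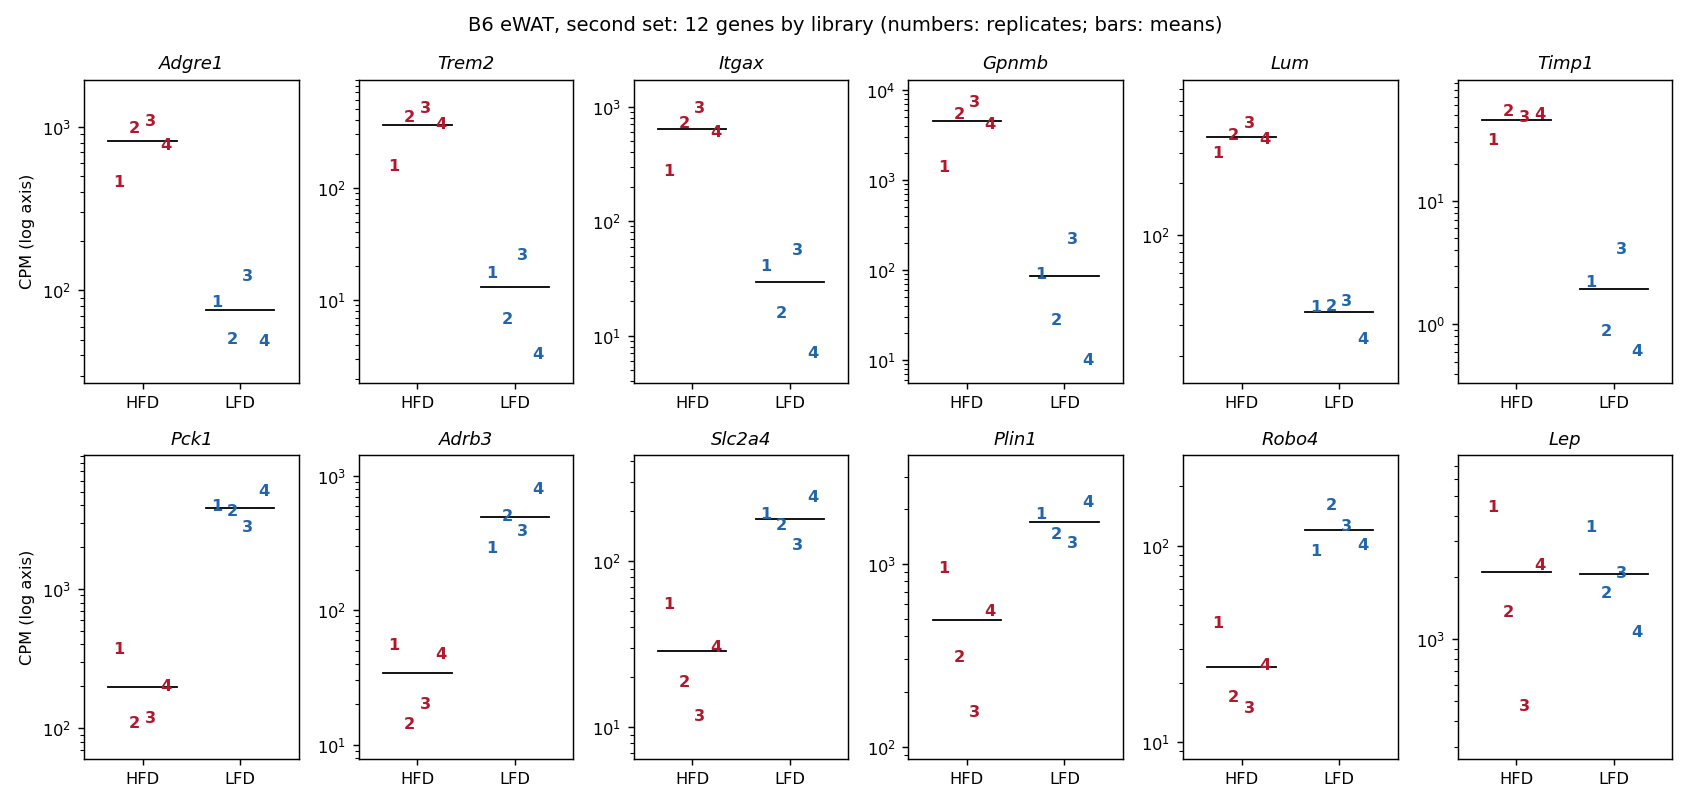
CPM on a log axis of 12 genes in the 4 HFD libraries (left, red) and the 4 LFD libraries (right, blue); each number is the replicate number of a library and each bar a group mean. The first 6 genes are higher on HFD, Pck1, Adrb3, Slc2a4, Plin1 and Robo4 are lower, and Lep overlaps between the diets.

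The genes with the largest rise on HFD by the naming rule were Serpinb9b, Spp1, Mmp12, Rnf128, Gpnmb and Mmp3. Serpinb9b, a serine protease inhibitor, was at 8.74, 242, 455 and 127 CPM on HFD and at 0.3 to 0.816 CPM on LFD, and rose by 8.30 ± 1.32 (adjusted p = 0.00108). The LFD values of Serpinb9b are a few reads per library, so its fold change is imprecise. Spp1, which encodes osteopontin, was at 34.4, 230, 259 and 279 CPM on HFD, against 1.45, 1.47, 6.80 and 0.601 CPM on LFD, and rose by 6.21 ± 0.83 (adjusted p = 0.000506). Mmp12, the macrophage elastase, was at 853, 5037, 7993 and 3188 CPM on HFD, against 69.4, 16.8, 137 and 6.91 CPM on LFD, and rose by 6.18 ± 1.07. Rnf128, an E3 ubiquitin ligase, rose by 5.92 ± 0.80, and Mmp3, the metalloproteinase stromelysin, by 5.60 ± 0.83. In these genes HFD replicate 1 lay well below the other 3 HFD libraries and still above every LFD library.

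Chemokine and cytokine genes also rose. Ccl2, which recruits monocytes through the receptor Ccr2, was at 26.2, 47.6, 30.2 and 40.5 CPM on HFD, against 6.99, 1.18, 7.07 and 2.4 CPM on LFD, and rose by 2.95 ± 0.41 (adjusted p = 0.000616). Ccl9, another chemokine, rose by 3.28 ± 0.34. Tnf, the inflammatory cytokine, was too low to be tested with all 8 libraries: it was at 1.03, 4.85, 6.68 and 4.50 CPM on HFD and at 0.272 to 0.601 CPM on LFD. Without LFD replicate 3 the filter asked for counts in fewer libraries, and Tnf passed it through the HFD libraries, where it is high. Its effect in that fit was 3.14 ± 0.80 (adjusted p = 0.0149). Its LFD values rest on few reads, so this fit is not separate support for a rise. Of 25 members in the files 17 were tested, 13 rose and 1, the interferon-induced chemokine Cxcl10, fell (-1.64, adjusted p = 0.0294). The call of Cxcl10 was lost on leaving out any of HFD replicates 2, 3 and 4 and LFD replicates 2 and 4 (adjusted p up to 0.107). The median was 1.77 with all libraries, 2.08 over the 22 members tested without LFD replicate 3, and 2.77 without HFD replicate 1. Saa3, an acute-phase protein of adipose tissue, differed from the macrophage genes in its order on HFD: it was at 69.5, 16.4, 11.5 and 39.2 CPM on HFD, highest in replicate 1, against 6.75, 7.06, 10.1 and 1.8 CPM on LFD, and rose by 2.34 ± 0.63.

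Most markers of lymphocytes were too low to test or did not pass. Of 22 T, B and NK cell genes in the files 10 were tested, 1 rose and 0 fell, with a median of 0.29. Without HFD replicate 2, 1 fell and the median was -0.59. Some tested members were imprecise, such as the B cell gene Cd79b (0.99 ± 0.88, adjusted p = 0.366), so changes could have gone undetected. The gene that rose was Il7r, the interleukin 7 receptor, at 106, 198, 206 and 169 CPM on HFD, against 10.1, 4.41, 20.1 and 3.60 CPM on LFD (4.09 ± 0.47, adjusted p = 0.00031). Cd4 and Lck, a T cell kinase, were at 0.42 (adjusted p = 0.552) and -0.20 (adjusted p = 0.71). Of the genes of mast cells, neutrophils and dendritic cells, 8 of 15 tested rose and 1 fell, with a median of 0.77. The mast cell proteases Cma1 and Cpa3 rose by 3.95 ± 0.69 and 3.66 ± 0.66; Cma1 was at 10.7, 52.9, 88.0 and 31.6 CPM on HFD, against 1.45, 4.41, 3.54 and 2.1 CPM on LFD. Kit, the receptor that marks mast cells, was at -0.19 (adjusted p = 0.598). Zbtb46, a transcription factor of dendritic cells that endothelial cells express too, was the member that fell (-1.27 ± 0.23).

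Lysosomal genes, whose products acidify the lysosome and digest its contents, rose in 25 of 29 cases tested and fell in 0, with a median of 1.26. Atp6v1a, a catalytic subunit of the proton-pumping V-ATPase, was at 469, 726, 884 and 640 CPM on HFD, against 160, 113, 165 and 112 CPM on LFD, and rose by 2.26 ± 0.23 (adjusted p = 0.00022). The letters TCACGTGA, which hold the E-box bound by the lysosomal regulators of the TFEB family and read the same on both strands, were searched in RefSeq promoters of 300 bases (build GRCm38.p6). They stood in 5 of the 22 list genes with a promoter in that table (22.7%), beside 304 of 27025 genes (1.12%) overall. Of those 5, Ctsa, Ctsd, Atp6v0d1 and Atp6v1a rose, and Mcoln1 was at 0.34 (adjusted p = 0.105), a gene called without HFD replicate 1 or LFD replicate 4 (adjusted p = 0.0217 and 0.0298). The promoters of the 3 with the larger rise are shown with the motif in capitals; Ctsa (protective protein cathepsin A, 1.89) lies at chr2:164833523-164833822 on the plus strand, Ctsd (cathepsin D, 1.74) at chr7:142387778-142388077 on the minus strand and Atp6v1a at chr16:44139210-44139509 on the minus strand.
Ctsa: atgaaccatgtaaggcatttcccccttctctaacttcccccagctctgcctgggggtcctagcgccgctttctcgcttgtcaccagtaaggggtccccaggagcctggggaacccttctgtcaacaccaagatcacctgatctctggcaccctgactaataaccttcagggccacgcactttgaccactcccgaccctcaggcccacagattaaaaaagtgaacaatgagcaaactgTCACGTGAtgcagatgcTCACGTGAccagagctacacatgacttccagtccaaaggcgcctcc
Ctsd: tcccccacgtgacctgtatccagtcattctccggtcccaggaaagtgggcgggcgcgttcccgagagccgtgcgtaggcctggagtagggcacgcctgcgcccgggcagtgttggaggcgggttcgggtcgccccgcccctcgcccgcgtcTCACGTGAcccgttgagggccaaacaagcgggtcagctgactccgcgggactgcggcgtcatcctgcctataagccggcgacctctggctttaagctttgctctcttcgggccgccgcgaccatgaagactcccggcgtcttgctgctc
Atp6v1a: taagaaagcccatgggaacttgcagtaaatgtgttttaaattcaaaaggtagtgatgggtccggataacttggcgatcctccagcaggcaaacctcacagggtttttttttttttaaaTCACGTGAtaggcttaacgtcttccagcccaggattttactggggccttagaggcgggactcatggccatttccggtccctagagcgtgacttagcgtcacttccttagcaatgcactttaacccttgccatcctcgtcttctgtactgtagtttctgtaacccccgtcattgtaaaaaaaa
A match of letters is a description of these windows and not a measured binding site. GAGGAAGT, a form of the site of the macrophage regulator Spi1, stood on either strand in 3 of 19 promoters of general macrophage genes (15.8%) and in 3.69% of all genes with a promoter. CCAAT, the letters read by the factor NF-Y, stood in 18 of 21 promoters of proliferation genes (85.7%) and in 41.1% of all.

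Proliferation genes rose, with 1 exception among those tested. Mcm6, a subunit of the replicative helicase, was at 51.1, 81.2, 73.4 and 68.6 CPM on HFD, against 16.1, 14.4, 15 and 12.9 CPM on LFD, and rose by 2.17 ± 0.16 (adjusted p = 0.000127). Kif11, a mitotic kinesin, was at 28.9 to 31.5 CPM on HFD, against 2.4 to 5.54 CPM on LFD (2.64 ± 0.20). Aurkb, a mitotic kinase, was at 10.1 to 11.4 CPM on HFD, against 1.20 to 2.06 CPM on LFD (2.69 ± 0.21). Of 24 tested, 23 rose and 1 fell, with a median of 2.35; the 1 that fell was Tyms (-1.16, adjusted p = 0.00384), thymidylate synthase.

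Matrix genes rose on HFD in most members tested. Lum, the proteoglycan lumican, was at 299, 376, 442 and 360 CPM on HFD, against 38.3, 38.8, 41.1 and 24.9 CPM on LFD, and rose by 3.31 ± 0.19 (adjusted p = 6.89e-05). Col1a1, a chain of type I collagen, was at 642, 1028, 1164 and 1295 CPM on HFD, against 237, 310, 550 and 213 CPM on LFD, and rose by 1.6 ± 0.33 (adjusted p = 0.00402). LFD replicate 3 had the highest LFD value for Col1a1, and without it the rise was 2.01 ± 0.28. Col6a3, a chain of the type VI collagen around adipocytes, rose by 1.72 ± 0.24, and Postn, periostin, by 2.56 ± 0.30. The collagens of basement membranes Col4a1 and Col4a2 were at -0.02 (adjusted p = 0.938) and 0.01 (adjusted p = 0.954). Lox, which cross-links collagen, was at 277, 103, 78.6 and 118 CPM on HFD, against 118, 65.3, 89.5 and 43.3 CPM on LFD; the diets overlapped and it did not pass the test (0.81, adjusted p = 0.126). In all, 18 of 28 matrix genes tested rose and 1, the antiangiogenic thrombospondin Thbs1, fell (-1.33, adjusted p = 0.00174), with a median of 1.19. Without LFD replicate 3, 20 rose and the median was 1.315.

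Enzymes that cut matrix and their inhibitors split by member. Timp1, an inhibitor of metalloproteinases, was at 31.1, 53.3, 47.7 and 50 CPM on HFD, against 2.17, 0.882, 4.08 and 0.601 CPM on LFD, and rose by 4.46 ± 0.39 (adjusted p = 0.000164). Timp3 and Timp4, inhibitors of the same family, fell by 1.58 (adjusted p = 0.000814) and 3.44 (adjusted p = 0.00377). Mmp14, a membrane-bound collagenase, rose by 2.04 ± 0.24, and Adam12, a disintegrin metalloproteinase, was at 161 to 175 CPM on HFD, against 27.3 to 61.2 CPM on LFD (1.94 ± 0.20). Of 17 tested, 10 rose and 3 fell, with a median of 1.27. Among fibroblast and progenitor genes, 6 of 16 rose and 2 fell, with a median of 0.37. Pdgfra, the receptor that marks adipose progenitors, rose by 1.31 ± 0.15, and Mfap5, a microfibril protein, by 2.07 ± 0.22. Ly6c1, listed with these cells and also found on endothelium, fell by 0.79 ± 0.13.

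Adipocyte genes fell by different amounts, and not all passed. Pck1, the glyceroneogenic enzyme, was at 369, 109, 118 and 201 CPM on HFD, against 3886, 3589, 2770 and 5049 CPM on LFD, and fell by 4.33 ± 0.46 on the log2 scale (adjusted p = 0.000249). Plin1, the coat protein of the adipocyte lipid droplet, was at 945, 309, 154 and 550 CPM on HFD, against 1852, 1438, 1284 and 2174 CPM on LFD, and fell by 1.85 ± 0.49 (adjusted p = 0.0123). Pparg, the master regulator of adipocytes, fell by 1.29 ± 0.30 (adjusted p = 0.00645) and Cebpa, its partner, by 1.21 ± 0.18 (adjusted p = 0.000807). HFD replicate 1 was the HFD library nearest to LFD for Pck1, Plin1 and Pparg. Adipoq, which encodes the hormone adiponectin, was at 2569, 740, 192 and 923 CPM on HFD, against 4588, 3035, 2949 and 3538 CPM on LFD (-1.73 ± 0.62, adjusted p = 0.0434). The diets did not overlap for Adipoq, but its call was lost without LFD replicate 3 (-1.77, adjusted p = 0.0678) and on leaving out each of HFD replicates 2 and 4 and LFD replicates 1, 2 and 4. Cidec, which fuses lipid droplets, fell by 1.48 ± 0.46 (adjusted p = 0.0242), a call lost on leaving out HFD replicate 2 or 4 or LFD replicate 1 or 4. Of 31 adipocyte identity and storage genes tested, 18 fell and 2 rose, with a median of -1.23, where 24.3% of all genes fell. The 2 that rose were Cebpb (0.73, adjusted p = 0.00866) and the fatty acid transporter Cd36 (0.72, adjusted p = 0.0305), which macrophages express too. The call of Cd36 was lost without LFD replicate 3 (0.77, adjusted p = 0.0549) and on leaving out HFD replicate 2 or 3 or LFD replicate 2 or 4. The number of adipocyte genes that fell was 16 without LFD replicate 3, 11 without HFD replicate 2 and 27 without HFD replicate 1.

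Lep, which encodes the satiety hormone leptin, did not move with them. It was at 4356, 1346, 472 and 2281 CPM on HFD, against 3479, 1669, 2092 and 1077 CPM on LFD. The HFD libraries held both the highest and the lowest value, and the difference was -0.02 ± 0.59 (adjusted p = 0.978). At that spread a change of either sign could have gone undetected. Mest, Sfrp5 and Npr3, genes linked to fat expansion, behaved alike in that their diets overlapped: they were at -0.38 (adjusted p = 0.71), -1.58 (adjusted p = 0.129) and -0.81 (adjusted p = 0.231). Without HFD replicate 1 both Sfrp5 (-2.32, adjusted p = 0.0259) and Npr3 (-1.48, adjusted p = 0.00983) were called, as they were by limma with all libraries (-2.31, adjusted p = 0.0105, and -1.41, adjusted p = 0.00581). Mest was at 648, 119, 34.5 and 257 CPM on HFD, against 471, 378, 418 and 68.2 CPM on LFD. In the order of HFD libraries, replicate 1 was highest and replicate 3 lowest for Lep, Mest, Sfrp5 and Npr3. Among 16 fat expansion genes tested, 5 fell and 1 rose, with a median of -0.77, where 24.3% of all genes fell. Without HFD replicate 1, 9 fell. Nnat, an imprinted proteolipid, was at 211, 48.9, 23.0 and 104 CPM on HFD, against 1239, 1014, 743 and 1474 CPM on LFD, and fell by 3.60 ± 0.63 (adjusted p = 0.00169).

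Among 25 genes of adipokines and secreted factors tested, 9 fell and 3 rose, with a median of -0.43. Agt, angiotensinogen, was at 33.0, 10.9, 6.82 and 16.3 CPM on HFD, against 205, 128, 134 and 250 CPM on LFD, and fell by 3.48 ± 0.47 (adjusted p = 0.000532). Cfd, the complement factor adipsin secreted by adipocytes, was at 316, 38.1, 10.8 and 128 CPM on HFD, against 2997, 2170, 1417 and 6651 CPM on LFD, and fell by 4.83 ± 1.02 (adjusted p = 0.00432). Gdf15, a stress-induced hormone, was at 4.94, 21.2, 26.9 and 20.8 CPM on HFD, against 1.45, 0.294, 0.816 and 2.1 CPM on LFD, and rose by 3.90 ± 0.65.

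Insulin signalling and glucose use fell in most members. Slc2a4, the glucose transporter GLUT4, was at 54.5, 18.6, 11.6 and 30.1 CPM on HFD, against 190, 163, 124 and 240 CPM on LFD, and fell by 2.71 ± 0.44 (adjusted p = 0.00125). Insr, the insulin receptor, was at 191, 136, 127 and 144 CPM on HFD, against 334, 323, 309 and 357 CPM on LFD, and fell by 1.21 ± 0.15 (adjusted p = 0.000402). Foxo1, the transcription factor that insulin excludes from the nucleus, fell by 1.67 ± 0.17, and Gys1, glycogen synthase, by 1.91 ± 0.27. Of 21 tested, 14 fell and 2 rose, with a median of -1.21. The 2 that rose were Slc2a1 (1.85, adjusted p = 0.00645), the insulin-independent transporter GLUT1, and Akt1 (0.73, adjusted p = 0.0176; 0.0501 without LFD replicate 2), while Akt2, the main isoform in insulin-responsive tissue, fell (-1.20, adjusted p = 0.00486).

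The genes of noradrenaline sensing and lipolysis fell in 9 of 19 cases and rose in 1, with a median of -1.08; 15 fell without HFD replicate 1. Adrb3, the beta-adrenergic receptor of rodent adipocytes, was at 54.6, 14.1, 19.8 and 46.8 CPM on HFD, against 287, 501, 387 and 790 CPM on LFD, and fell by 3.94 ± 0.52 (adjusted p = 0.000484). Pnpla2, the triglyceride lipase ATGL, was at 412, 207, 167 and 298 CPM on HFD, against 1066, 993, 921 and 1916 CPM on LFD, and fell by 2.25 ± 0.36 (adjusted p = 0.00106). The diets did not overlap for either gene.

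Of 23 genes of fatty acid and sterol synthesis tested, 9 fell and 4 rose, with a median of -0.77. Scd1, the stearoyl-CoA desaturase, was at 15140, 3752, 2408 and 6570 CPM on HFD, against 35880, 41850, 37960 and 38660 CPM on LFD, and fell by 2.54 ± 0.58 (adjusted p = 0.00603). Srebf1, a regulator of fatty acid synthesis, fell by 1.55 ± 0.22 (adjusted p = 0.000685). Fasn, fatty acid synthase, was at 2968, 1063, 446 and 2114 CPM on HFD, against 1975, 5808, 5083 and 8999 CPM on LFD; LFD replicate 1 lay among the HFD libraries. Fasn fell by 1.81 ± 0.62 (adjusted p = 0.0363), and the call was lost without LFD replicate 3 (adjusted p = 0.0628), without LFD replicate 2 or 4, and without HFD replicate 2, 3 or 4. Sqle, squalene epoxidase, was at 29.5, 34.5, 22.6 and 30.9 CPM on HFD, against 9.88, 11.8, 15.2 and 6.91 CPM on LFD, and rose by 1.37 ± 0.22, and Srebf2, a regulator of sterol synthesis, by 0.78 (adjusted p = 0.00522). Fdft1, squalene synthase, fell by 1.54 (adjusted p = 0.00253) and is taken up again with the first set below.

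Of 54 genes of oxidative phosphorylation tested, 13 fell and 2 rose, 0 of them by 2-fold, with a median of -0.24, so the share that fell was near that of all genes (24.3%). That count moved with single libraries: 23 fell without HFD replicate 1, and 4 to 7 on leaving out HFD replicate 2, 3 or 4 or LFD replicate 1 or 4. Ndufb9, a subunit of complex I, fell by 0.97 ± 0.20 (adjusted p = 0.00431), and Atp5g1, a subunit c gene of ATP synthase, rose by 0.59 ± 0.14 (adjusted p = 0.0064). In the tricarboxylic acid cycle and pyruvate list, 10 of 24 fell (18 without HFD replicate 1) and 0 rose, with a median of -0.43; Pdk2, a kinase that switches off pyruvate dehydrogenase, was at 20.4, 15.2, 13.9 and 19.5 CPM on HFD, against 74.0, 62.9, 57.4 and 111 CPM on LFD (-2.21 ± 0.24). Fatty acid oxidation genes fell in 12 of 26 cases (8 of 26 without LFD replicate 3) and rose in 1, with a median of -0.64. Their falls numbered 21 without HFD replicate 1, and 4 to 6 on leaving out HFD replicate 2 or 4 or LFD replicate 4. Ppara, the regulator of fatty acid oxidation, fell by 2.1 ± 0.30. Branched-chain amino acid breakdown fell more widely, in 15 of 17 genes tested with 0 that rose and a median of -1.33. Ivd, isovaleryl-CoA dehydrogenase of leucine breakdown, was at 76.3, 38.3, 30.4 and 49.0 CPM on HFD, against 182, 165, 160 and 282 CPM on LFD (-2.09 ± 0.31, adjusted p = 0.000807).

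Ucp1, the uncoupling protein of brown fat that the series title names, was too low to be tested in this depot, at 0.121 to 0.668 CPM on HFD and 0.482 to 1.18 CPM on LFD. Of 22 brown and beige fat genes in the files 13 were tested, 5 rose and 3 fell, with a median of -0.55. Of all genes 25.7% rose and 24.3% fell, so the share of the list that fell was near that of all genes. Over the 15 tested without LFD replicate 3, 7 rose and 3 fell and the median was 1.38. Leaving out any other LFD library also gave a median above 0, and 6 fell without HFD replicate 1. The filter asks for counts in fewer libraries when a library is left out, so the members tested can change. Genes high on HFD alone can then enter, and these medians need not be of the same genes. The 5 that rose were Ckb, Gyk, Dio2, Slc6a8 and Otop1. Ckb, the brain creatine kinase, was at 168, 390, 482 and 368 CPM on HFD, against 54.4, 37.0, 50 and 48.4 CPM on LFD (2.83 ± 0.31), and Gyk, glycerol kinase, rose by 1.5 ± 0.21. Dio2, the deiodinase that activates thyroid hormone, was at 4.83 to 7.89 CPM on HFD and 0 to 1.09 CPM on LFD (3.70 ± 0.50). Dio2 passed the filter through the HFD libraries, where it is high. Its LFD values rest on few reads, so its call is not separate support for a rise. Ppargc1a, a regulator of mitochondria, and Ebf2 fell by 1.48 (adjusted p = 0.0261, and up to 0.0809 on leaving out HFD replicate 2, 3 or 4 or LFD replicate 1 or 4) and 0.94 (adjusted p = 0.00804).

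Endothelial genes fell without exception, in 17 of 17 cases tested, with a median of -1.71 (-1.66 without LFD replicate 3). Robo4, a receptor of endothelial cells, was at 40.1, 16.9, 14.8 and 24.6 CPM on HFD, against 93.7, 160, 126 and 99.8 CPM on LFD, and fell by 2.37 ± 0.32 (adjusted p = 0.000539). Eng, the co-receptor endoglin, was at 57.6 to 62.2 CPM on HFD, against 98.0 to 128 CPM on LFD, and fell by 0.99 ± 0.10. Vegfa, the growth factor of blood vessels, fell by 2.69 (adjusted p = 0.00176).

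**Figure D2:**
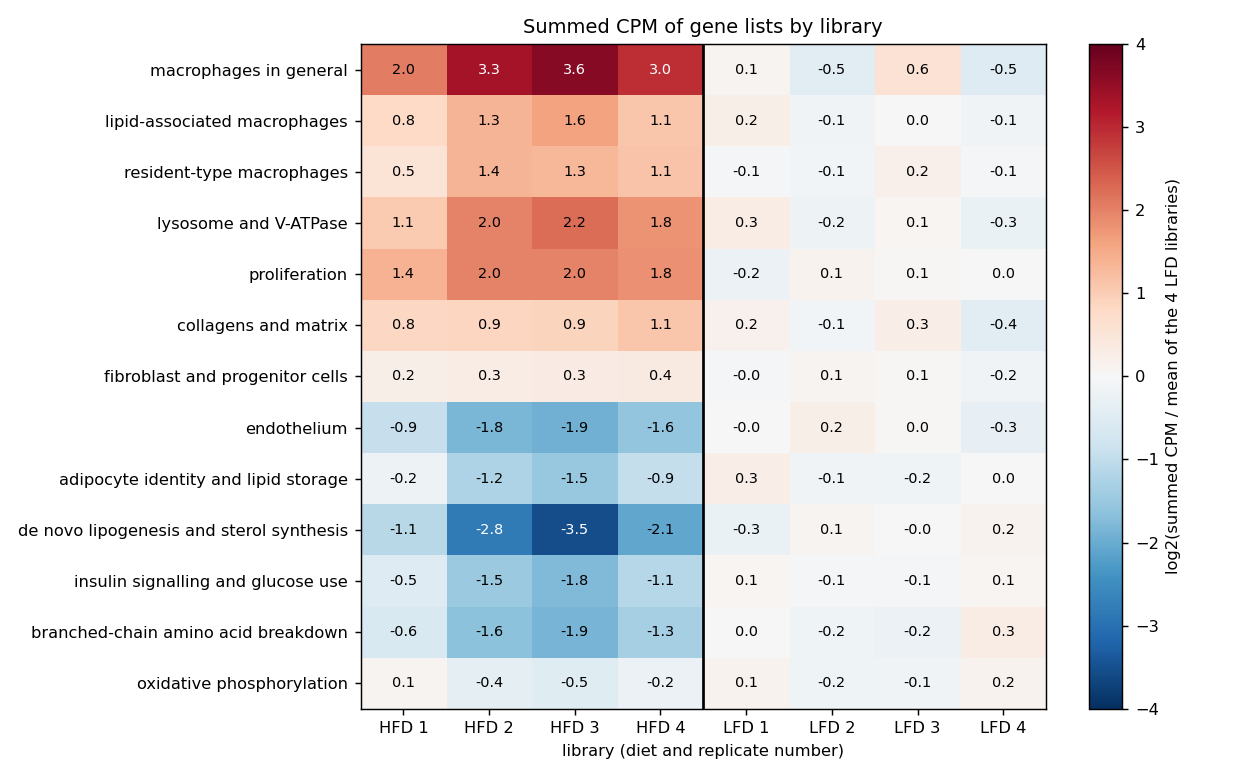
Summed CPM of 13 gene lists in each of the 8 libraries (columns, HFD left of LFD), as log2 of the ratio to the mean of the 4 LFD libraries; red is above and blue below that mean. The HFD libraries are graded, with replicate 1 nearest to LFD and replicate 3 farthest in the lists of macrophages in general and of adipocyte genes.

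The HFD libraries were graded. The summed level of the general macrophage list was 6448, 15690, 19700 and 12190 CPM in HFD replicates 1 to 4, against 1708, 1143, 2340 and 1095 CPM in LFD replicates 1 to 4. The summed adipocyte list was 51300, 25240, 20760 and 30830 CPM on HFD, against 70750, 54180, 53170 and 59810 CPM on LFD. The order of HFD libraries in the first sum is the reverse of that in the second, as the plot of lists by library shows. Over the 6553 genes that changed, replicate 1 was the HFD library nearest to the LFD mean for 4398 (67.1%). Summed collagen and matrix genes did not follow this order, at 26520, 27260, 27600 and 32090 CPM on HFD, against 16850, 13890, 17960 and 11310 CPM on LFD.

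Clock genes moved in both directions. Of 18 tested, 9 fell and 5 rose, with a median of -0.69. Per3, a repressor of the clock, was at 60.7, 52.5, 57 and 50.3 CPM on HFD, against 161, 172, 127 and 220 CPM on LFD (-1.69 ± 0.18), and Cry2, another repressor, fell by 1.42 ± 0.17. The activator Arntl and its relative Npas2 rose by 1.64 (adjusted p = 0.00252) and 2.54 (adjusted p = 0.00494). The labels give no time of day for either diet.

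Interferon-response genes fell in 8 of 20 cases and rose in 1, with a median of -0.72. Irf7, an interferon-induced transcription factor, was at 12.1, 10.8, 7.75 and 10.5 CPM on HFD, against 28.2, 29.1, 23.1 and 31.2 CPM on LFD (-1.5 ± 0.17), and Usp18 fell by 1.19 ± 0.19. Oas1a, an RNA-sensing enzyme, was the member that rose (1.16 ± 0.22). In the list of protein folding and amino acid stress genes, 12 of 20 rose and 3 fell, with a median of 0.53. Hspa5, the chaperone BiP of the endoplasmic reticulum, was at 934, 992, 1207 and 1032 CPM on HFD, against 413, 311, 419 and 360 CPM on LFD (1.41 ± 0.15), and Sdf2l1 rose by 2.26 ± 0.27. Asns and Chac1, targets of the amino acid stress factor Atf4, fell by 1.06 (adjusted p = 0.00816) and 1.61 (adjusted p = 0.0145; 0.0527 for Chac1 without LFD replicate 4). Immediate early genes rose in 8 of 19 cases and fell in 1, with a median of 0.58: Atf3 rose by 4.39 ± 0.52 and Egr2 by 3.64 ± 0.37, while Nr4a1 was at 0.13 (adjusted p = 0.715) and Ier2 at 0.29 (adjusted p = 0.379).

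Markers of neighbouring tissues were examined in the same way. Mesothelial genes, from the lining of the abdomen, fell in 3 of 12 cases and rose in 1 with all libraries. The share that fell was near that of all genes (24.3%). They fell in 0 cases without LFD replicate 2 or 3 or HFD replicate 2, and in 10 without LFD replicate 1. Their summed level was 244 to 335 CPM on HFD, against 135 to 855 CPM on LFD. Krt8, a keratin of that lining, was at 5.98, 4.85, 6.82 and 6.88 CPM on HFD, against 7.95, 22.9, 23.4 and 7.51 CPM on LFD (-1.39 ± 0.39, adjusted p = 0.0161), and without LFD replicate 3 its adjusted p was 0.0579. Krt18 fell by 1.85 ± 0.57 (adjusted p = 0.023), and without that library its adjusted p was 0.0659. Both calls were also lost without HFD replicate 2 or LFD replicate 2. Cpe, a carboxypeptidase on this list, was the member that rose (1.91 ± 0.36). Nerve genes gave 1 rise (Pmp22, 1.10 ± 0.19) and 1 fall (Scn7a, -1.17 ± 0.31) among 5 tested, where 25.7% of all genes rose and 24.3% fell. Of 5 skeletal muscle genes tested 3 fell, with Acta1, skeletal actin, at 3.08 to 8.62 CPM on HFD and 18.6 to 34.9 CPM on LFD. Of 20 genes of epididymis and testis 0 could be tested, 4 were at 0 in all 8 libraries, and their summed level was 0.422 to 0.727 CPM on HFD, against 1.90 to 5.0 CPM on LFD. Epithelial genes gave 1 fall among 4 tested, near the share of all genes. That count was 0 without HFD replicate 2 or 4 or LFD replicate 2 or 4, and 2 without LFD replicate 1. Pancreas genes gave none among 1 tested. Alas2, the haem enzyme of red blood cells, was the single gene of its list tested and fell by 2.25 ± 0.50, or by 1.47 ± 0.28 without LFD replicate 3.

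LFD replicate 3 stood apart in liver genes. Alb, the serum albumin made by liver, was at 2.87, 1.09, 0.134 and 0.983 CPM on HFD, against 12.5, 17.1, 1107 and 19.5 CPM on LFD. Apoa1, an apolipoprotein of liver and gut, was at 0 CPM in all 4 HFD libraries, against 9.88, 0, 89.8 and 0.3 CPM on LFD, and Ttr, the transthyretin of liver, was at 0, 0, 0 and 0.141 CPM on HFD, against 0.723, 0, 59.8 and 0 CPM on LFD. In LFD replicate 3, 86 genes were over 10 times higher than in any of the other 7 libraries; 20 of them stand on the liver list, and together they made up 0.418% of that library's counts. By the naming rule the largest falls were Alb, Apob, Serpina3k, Tat, Itih4 and Syt14, and for the 5 of them expressed by liver the size rests on this library. Alb fell by 7.81 ± 1.88 with it and by 3.66 ± 0.57 (adjusted p = 0.00217) without it. Apob fell by 7.18 and 3.64, Serpina3k by 6.02 and 3.69, Tat by 5.30 and 2.51, and Itih4 by 5.24 and 2.81, in the fits with and without it. The other 3 LFD libraries also lay above the HFD libraries for these 5 genes. Of 35 liver list genes in the files, 12 were tested with all libraries, of which 9 fell and 0 rose, with a median of -4.08. Members near 0 CPM on HFD, such as Alb, Apob and Tat, passed the filter through the LFD libraries. The count and median are thus partly set by the filter and are not separate support for a fall. Over the 14 tested without LFD replicate 3, 9 fell and 1 rose, with a median of -1.99.

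**Figure D3:**
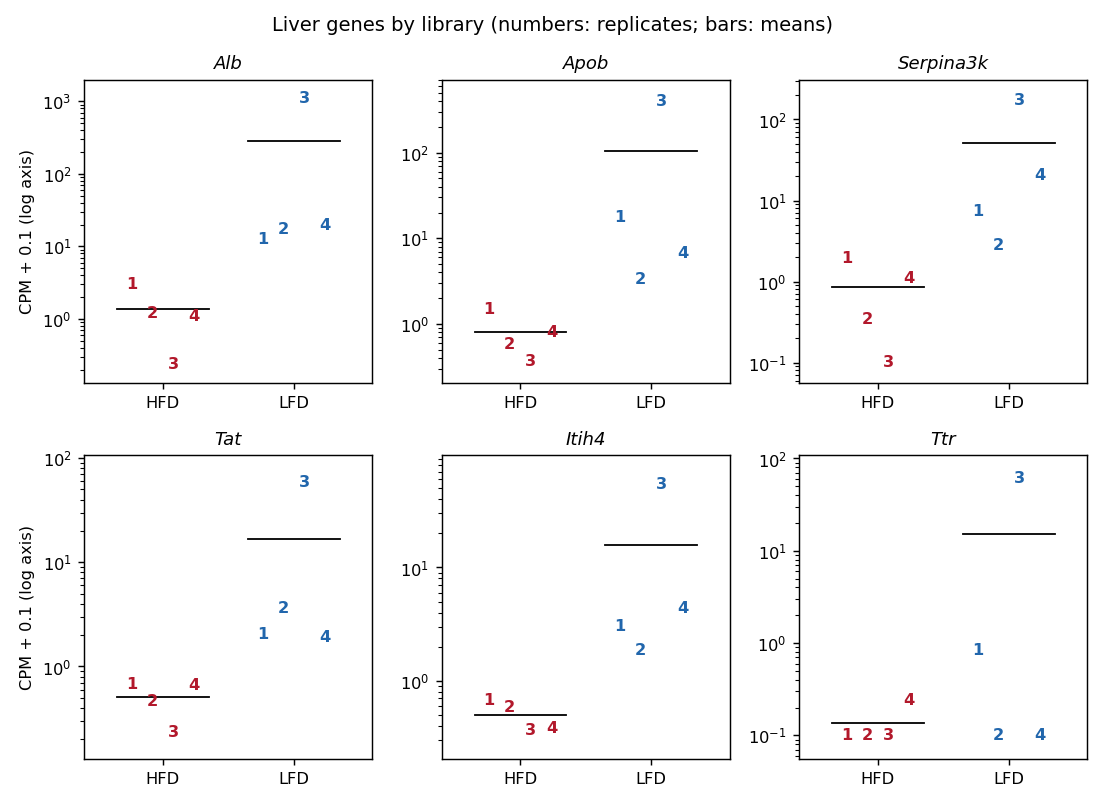
CPM + 0.1 on a log axis of 6 liver genes in the 4 HFD libraries (left, red) and the 4 LFD libraries (right, blue); numbers are replicate numbers and bars are group means. LFD replicate 3 is the highest library in each panel, with Alb at 1107 CPM.

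Some liver-list genes are also made by fat. Cyp2e1, a cytochrome P450, was at 105, 36.2, 13.8 and 51.3 CPM on HFD, against 750, 1343, 1151 and 2965 CPM on LFD, where LFD replicate 3 did not stand out (-5.0 ± 0.71). Trf, transferrin, fell by 1.42 ± 0.34, and C3, the complement component, was at 0.59 (adjusted p = 0.111). After the values were seen, the largest falls were also taken from the fit without LFD replicate 3, leaving out the 86 genes: they were Cyp2e1, Cfd, Syt14, Ripk4, Disp2 and Orm3. Orm3, an acute-phase orosomucoid, was at 0.535 to 1.12 CPM on HFD, against 14.7 to 23.7 CPM on LFD (-4.68 ± 0.28). Disp2, a protein of the dispatched family, was at 0.802 to 1.15 CPM on HFD, against 17.4 to 33.0 CPM on LFD (-4.75 ± 0.28). Syt14, a synaptotagmin, was at 0 to 0.575 CPM on HFD, against 8.53 to 10.9 CPM on LFD (-5.06 ± 0.47). Ripk4, a kinase of epithelial differentiation, fell by 4.64 ± 0.79.

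A few values moved with the diets at the level of the library rather than of a pathway. The 11222 genes left out by the filter summed to 2198 to 2440 CPM on HFD, against 3559 to 6473 CPM on LFD, and 3726 to 4874 of them had a count on HFD, against 4452 to 6916 on LFD, although the LFD libraries were the shallower ones. Among RNAs without a poly(A) tail or kept in the nucleus, 6 of 13 tested rose and 0 fell, with a median of 0.49. Hist1h1e, a linker histone, rose by 1.31 ± 0.16. Scarna2, a small Cajal body RNA, was at 13.7, 20.7, 21.4 and 25.6 CPM on HFD, against 4.90 to 6.75 CPM on LFD (1.67 ± 0.22). It was at -0.07 (adjusted p = 0.847) in the first set and at 1.74 (adjusted p = 0.000387) in 129, whose libraries were in the same runs. The part of these values in the results was not tested.

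The first set of B6 eWAT, sequenced in 1 lane for both diets, shares no library with the second. Its libraries also differ in kind: reads in no annotated gene were 64.3 to 67.7% of the reads tallied, against 33.9 to 49.1% in the second set. The part of this in differences between the sets was not tested. Of 12285 genes tested in both, 2785 rose in both (22.7%), 2396 fell in both (19.5%) and 13 were called in opposite directions. The calls shared in direction were 83.6% of the second set's calls and 72.5% of the first set's. Across these genes, which are not independent replicates, Pearson's r of the log2 fold changes was 0.92 and Spearman's rho 0.90. Adgre1 was at 3.38 in the second set and 3.56 in the first, Lum at 3.31 and 2.59, Pck1 at -4.33 and -3.07, and Lep at -0.02 and 0.38 (adjusted p = 0.366). In list medians, endothelium was at -1.71 in the second set and -1.04 in the first, lipid synthesis at -0.77 and -1.8, oxidative phosphorylation at -0.24 and -0.53, and resident-type macrophages at 0.85 and 0.14. The 17 endothelial genes and 15 of the branched-chain genes fell in both sets, and 24 general macrophage genes rose in both.

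**Figure D4:**
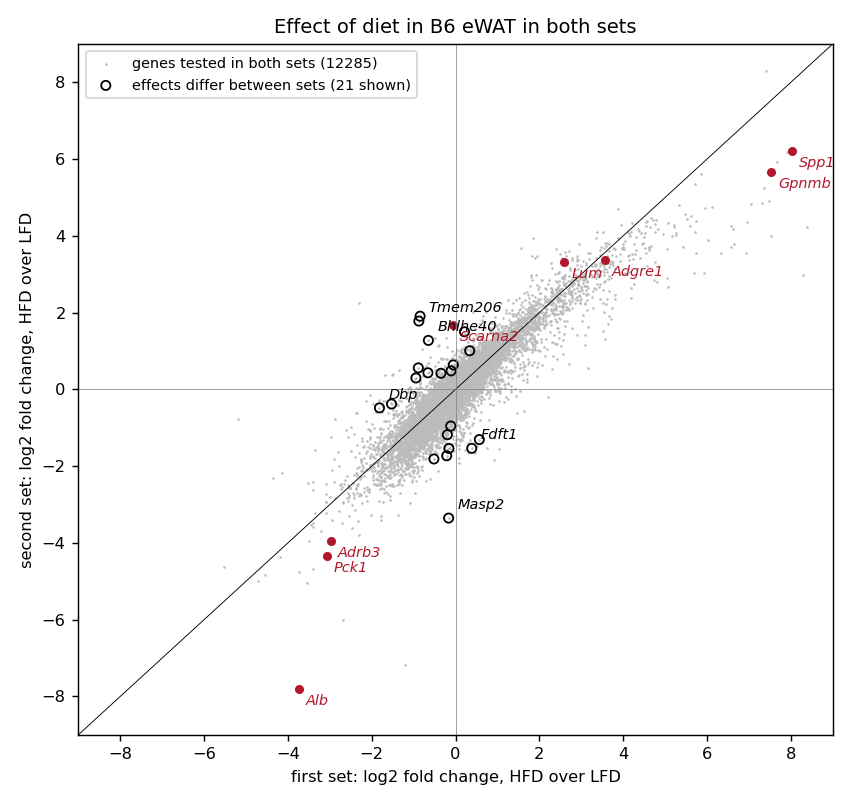
Log2 fold change of HFD over LFD in the second set (vertical axis) against the first set (horizontal axis) for 12285 genes; circles are genes whose effect differed between sets, and the diagonal marks equal effects. Most genes lie along the diagonal, Alb lies below it, and Tmem206 and Masp2 lie far from it.

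The difference between the sets was itself tested over 13208 genes, and 26 differed (0.197%), 13 in each direction. Diet goes with run in the second set and not in the first. The difference therefore holds any run effect of the second set, which cannot be told apart from diet. At an unadjusted p under 0.05 there were 1560, and DESeq2 called 53 above and 79 below. None of the 28 core genes tested, which include some of the macrophage, adipocyte and matrix genes above, was among the 26. Tmem206, a chloride channel, averaged 51.5 CPM on HFD and 14.4 CPM on LFD in the second set, and 209 CPM on HFD and 392 CPM on LFD in the first, so that its effect was 2.70 ± 0.34 higher in the second (adjusted p = 0.00318). Bhlhe40, a clock-linked repressor, averaged 43.8 CPM on HFD and 17.4 CPM on LFD in the second set, and 38.6 CPM on HFD and 61.7 CPM on LFD in the first (1.97 ± 0.31, adjusted p = 0.0131). Dbp, a clock output gene, was at -0.48 in the second set and -1.81 in the first (adjusted p of the difference = 0.0377). Fdft1 averaged 20.9 CPM on HFD and 58.0 CPM on LFD in the second set, and 104 CPM on HFD and 80.9 CPM on LFD in the first (-1.87 ± 0.34, adjusted p = 0.0373). Masp2, a protease of the lectin complement pathway, was at -3.35 in the second set and -0.16 in the first. These named genes were chosen after their values were seen.

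The 129 libraries crossed the same 2 runs with the same diets, so the difference between strains in the effect of diet compares HFD over LFD in B6 with the same in 129 across that change of run. Library differences that the strains do not share stay in this comparison. Reads in no annotated gene were 39.3 to 49.1% in B6 LFD libraries and 32.3 to 36.7% in 129 LFD libraries. On HFD they were 33.9 to 36.4% in B6 and 30.3 to 36.0% in 129. The part of this was not tested. Over 13523 genes tested, the B6 effect was above the 129 effect for 2908 (21.5%) and below it for 2531 (18.7%). Of the 6139 genes called in the second set and tested here, 957 changed the same way in 129 and 412 the other way, together 22.3%, beside 21.2% of all genes tested in 129. Trem2, at 4.73 in B6, was at -0.30 in 129 (difference 5.05, adjusted p = 1.78e-05), and Adgre1 at 0.31 in 129 (difference 3.11, adjusted p = 3.67e-05). Pck1, at -4.33 in B6, was at 0.08 in 129 (difference -4.37, adjusted p = 1.62e-05), and Adrb3 at -0.46 (difference -3.44, adjusted p = 0.00016).

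Matrix, proliferation and endothelial genes differed between strains too. Lum was at 0.44 in 129 (difference 2.91, adjusted p = 2.26e-06), Col6a3 at -0.24 (difference 2.0, adjusted p = 0.000161), Kif11 at -0.16 (difference 2.83, adjusted p = 1.15e-05) and Robo4 at -0.24 (difference -2.09, adjusted p = 0.00028). Of 27 core genes tested, 20 differed between strains. Fasn did not pass this test: it was at -1.81 in B6 and -2.1 in 129 (difference 0.33, adjusted p = 0.744). Among general macrophage genes, 24 of 25 tested differed upward in B6, and the list's median in 129 was 0.32; among endothelial genes, 15 of 17 differed downward and the median in 129 was -0.16. Of 11934 genes tested in the second set, the first set and 129, 116 (0.972%) were called the same way in the second set and in 129 but not in the first set, and 4972 of the 5971 second-set calls were called the same way in the first.

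**Figure D5:**
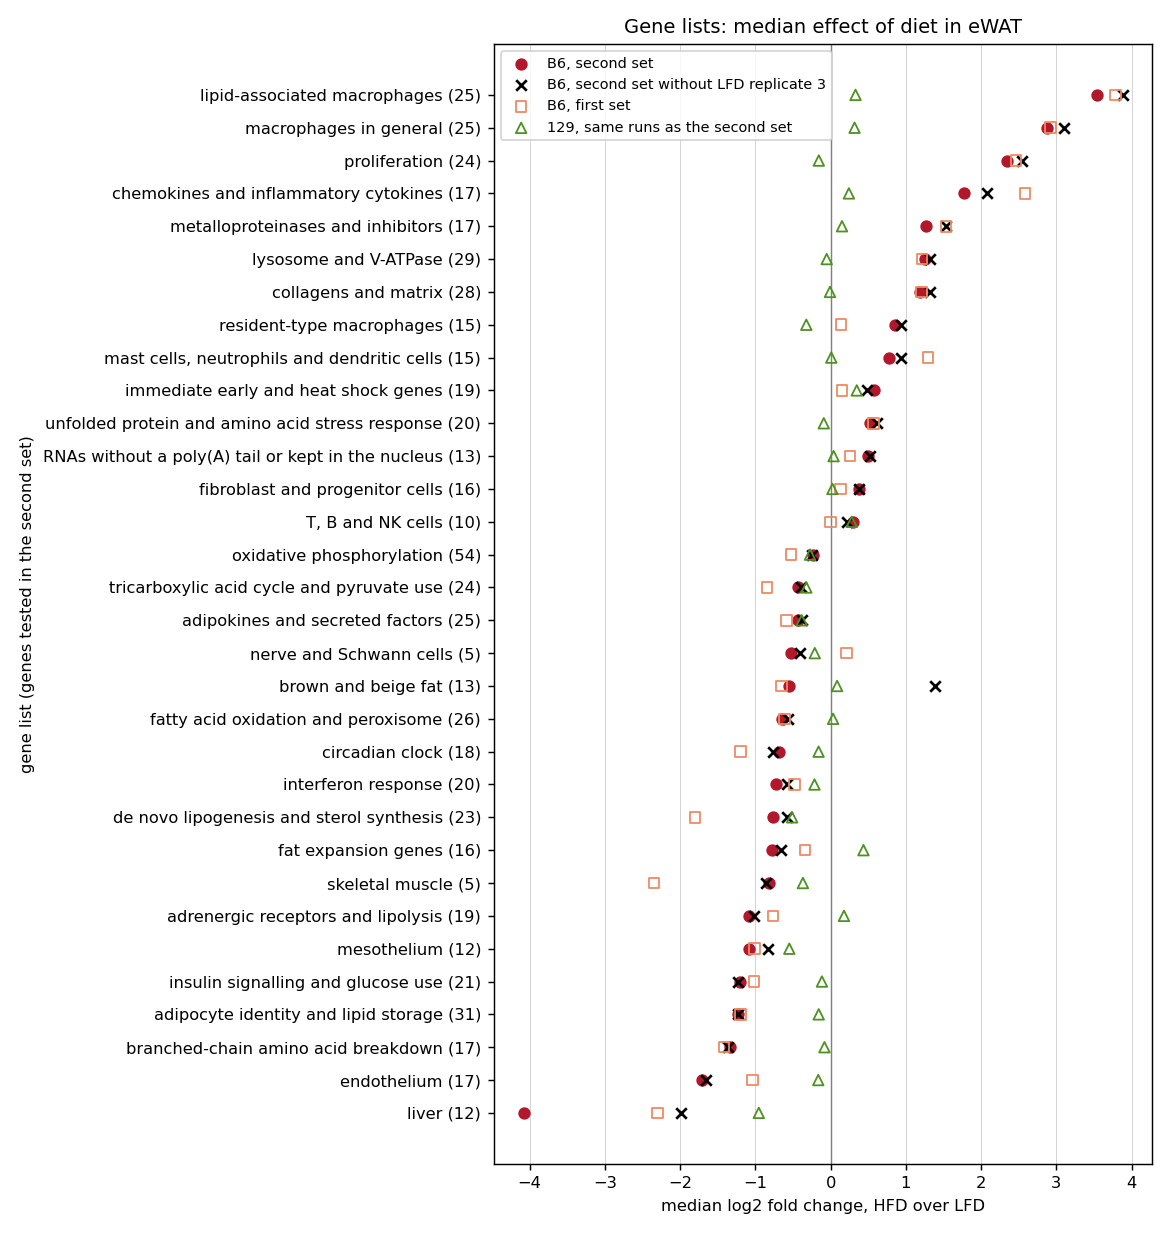
Median log2 fold change of HFD over LFD of 32 gene lists with at least 5 genes tested, in the second set with all libraries (filled circles) and without LFD replicate 3 (crosses), in the first set (squares) and in 129 (triangles); the number of genes tested in the second set follows each name, and the other fits test slightly different members. Both B6 sets place the lists of lipid-associated macrophages and of macrophages in general at the top and endothelium below 0, and the 129 medians lie between -1 and 1.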

How the data were processed

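The authors deposited unnormalized counts of reads in a file for each library, which lists 24328 genes by symbol and 5 tallies of unassigned reads. Per the submitters' processing notes, TopHat2 version 2.1.0, HTSeq and the build mm9 were used; the annotation, strand setting and read filters are not given in the sources used here, so reads of overlapping, antisense or near-identical genes may be shared between them. Per the labels, total RNA came from Trizol and RNeasy extraction and was depleted of ribosomal RNA (Ribo-Zero gold) before TruSeq library preparation.

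The tallies entered neither library sizes nor tests. Libraries were grouped by their labels. The main test was edgeR 4.0.16 (R 4.3.3), by its quasi-likelihood F test (2-sided, TMM scaling, filterByExpr with a minimum count of 10 and a minimum total of 15), on the 8 libraries alone for the second set, with Benjamini-Hochberg adjustment over all genes tested and a threshold of 0.05. SE is the absolute log2 fold change divided by the square root of F. Differences between sets and between strains were interaction terms over 4 groups. CPM used TMM factors over all 30 eWAT libraries, those labelled "rosi" included. The fit was tested on simulated counts. Within each diet of the second set, no pair of libraries agreed within sampling noise by a chi-square test of counts (12 pairs).

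Alternatives were DESeq2 1.42.0, limma 3.58.1 (voom with quality weights), other scalings and filters, a replicate block, more libraries in the fit, the liver list taken out, and each library left out. The 36 gene lists (783 entries in the files, 763 different genes) and the core genes were chosen with earlier results of these data known. Genes are named by a rule: the core genes, in each direction up to 6 genes by size of fold change (called with and without LFD replicate 3, no overlap, at least 5 CPM), for each list its 3 members of lowest adjusted p, and 5 liver genes highest in LFD replicate 3. Other list members named in counts of few, or as members that did not pass, and genes that differed between sets, were chosen after their values were seen. Intervals and SEs cover the spread between libraries, and counts are of reads, not molecules. Values of a few genes on the lists are not reported here, though the genes count among the list members.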

Additional observations from a re-analysis of the deposited data

Results flagged for a closer look

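In a group of 4 libraries, 1 library lay far from the other 3 by Dixon's test for 22 of 375 groups examined (the named genes and the summed lists, in each diet). Many of these genes move together within a library, so the flags are not independent. Whether their number exceeds chance was not tested. HFD replicate 1 was the lowest HFD library for Spp1 (34.4 CPM), Plin2 (1560 CPM), Folr2 (71.0 CPM), Gdf15 (4.94 CPM), Pdgfra (142 CPM), Ier2 (3.68 CPM) and the summed RNAs without a poly(A) tail or kept in the nucleus (21600 CPM), and the highest for Gyk (51.0 CPM). HFD replicate 4 was the lowest for Adam12 (161 CPM) and the highest for Ttr (0.14 CPM, 1 read).

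LFD replicate 3 was the highest LFD library for Alb (1110 CPM), Ttr (59.8 CPM), Tat (58.7 CPM), Srebf2 (38.1 CPM) and the summed resident-type macrophage genes (1440 CPM). LFD replicate 1 was the lowest for Timd4 (1.93 CPM). LFD replicate 4 was the lowest for Mest (68.2 CPM), Lum (24.9 CPM), Kif11 (2.4 CPM) and Mmp3 (0 CPM), and the highest for Mccc1 (101 CPM) and Pcca (92.5 CPM), genes of branched-chain amino acid breakdown.

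The effect of diet differed between strains, by the interaction term, for the genes given in the report: B6 minus 129 was 5.05 for Trem2, 3.11 for Adgre1, 2.91 for Lum, 2.83 for Kif11, 2.0 for Col6a3, -2.09 for Robo4, -3.44 for Adrb3 and -4.37 for Pck1, on the log2 scale.

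The effect of HFD over LFD also differed between the B6 sets, by the interaction term: the second set minus the first was 2.70 for Tmem206, 1.97 for Bhlhe40, 1.38 for Dbp, -1.87 for Fdft1 and -3.12 for Masp2, on the log2 scale. In the second set that effect holds diet and run together.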

How the results depend on the processing

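The counts of genes that rose or fell in the second set stayed within 1.5 times of 3371 and 3182 under each alternative fit, at 3458 and 3274 with DESeq2, 3049 and 3556 with upper quartile scaling, 4047 and 4171 with limma, and 3282 and 3233 with a replicate block. Same-numbered libraries deviated together only weakly (correlations of 0.185, 0.0407, 0.128 and 0.000644). Such values cannot show whether the numbers pair the libraries, and the labels do not say. Leaving out 1 library at a time gave 2912 to 4003 that rose and 2322 to 3725 that fell, and in the first set 3413 to 3761 and 3257 to 3683. A call of at least 2-fold, chosen after seeing the data, left 1583 and 1589. The 26 genes that differed between sets depended on the fit: DESeq2 gave 53 above and 79 below, and the replicate block 5 above and 1 below. Without LFD replicate 3 there were 13 above and 18 below. The strain difference gave 2798 above and 2580 below with the block. The cause of these shifts was not tested. Of 2624 values of 148 named genes under the alternatives, 2552 kept their direction and side of the threshold, 50 lost the call, 22 gained it and 0 reversed; Adipoq, Fasn, Cd36, Cxcl10 and Ppargc1a lost it most often. With the block the calls of Fasn, Krt18, Cd36 and Cxcl10 were lost (adjusted p = 0.0558, 0.0652, 0.0522 and 0.0525). Of 1260 list counts of members that rose or fell, 139 moved by over 1.5 times, and of 629 list medians 51 moved by more than the median SE of the members. Joining both B6 sets in one fit moved 32 of these list values, no filter 18, limma, all eWAT libraries and leaving out HFD replicate 1 moved 17 each, and leaving out LFD replicate 2 moved 13. Alb and Apob lost it with limma (adjusted p = 0.102 and 0.0991), and DESeq2 gave no adjusted p for Alb, Apob, Tat and Itih4. Depth limits the low genes on LFD, and the diets and runs cannot be told apart.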
